A study of Sus scrofa with 19 samples.

Results

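LPAR3 encodes a receptor for lysophosphatidic acid (LPA), and its signal was followed in pig endometrium (the inner lining of the uterine horns) taken from gilts, young females that have not farrowed, of crossbred stock. Its members are the 3 array probes whose RefSeq accession belongs to pig LPAR3, out of 43603 probes that are not controls on the array. The probes are A_72_P204032, A_72_P406683 and A_72_P515752. All 3 were assigned to the same transcript accession, so they are repeated readings of the same RNA and not independent genes.

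The study holds 19 arrays from 10 gilts aged 8 months. In 6 treated gilts (36, 38, 40, 41, 44 and 47), the hormone horn of the uterus (group EX_H, n = 6) was infused with 200 µg of prostaglandin E2 (PGE2) and 33.3 µg of estradiol (E2) each time. The other horn of 5 of those gilts (EX_C, n = 5) received placebo, that is, saline with ethanol, and the placebo horn of gilt 40 was not analysed here. In 4 control gilts (9, 14, 28 and 46), both horns received placebo and are labelled CTRL_P (n = 4) and CTRL_L (n = 4). Infusions were given at intervals of 4 h for 24 h. All gilts were cycling and had both horns cannulated by surgery, and none is labelled as pregnant. The mark L was on all 5 placebo horns of treated gilts. The mark P was on 5 hormone horns, and that of gilt 40 carried an L. What L and P stand for is not given in the labels.

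LPA is a small signalling phospholipid that acts on cells through a family of receptors on the cell surface, each coupled to heterotrimeric G proteins. LPAR3 couples mainly to G proteins of the Gq and Gi classes. In the uterus it is best known from mice, where loss of the gene delays implantation, crowds the embryos and lowers prostaglandin production. In pigs, estrogen is the signal by which the conceptus announces pregnancy, and endometrial LPAR3 is known as a gene that responds to it.

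Values are log2 of the background-subtracted signal minus the log2 of the same array's 75th percentile, so that differences between arrays are log2 fold changes. On the 19 arrays, 79.1% to 88.4% of spots were well above background, which the scanner software flags by a test against local background. All 3 LPAR3 probes were well above background on all 19 arrays. Both horns of gilt 47 stood apart by their immune cell markers, given below with the cell types, and the hormone horn of gilt 36 had the lowest 75th percentile of signal (597, against up to 983). LPAR3 passed or missed the threshold in the same comparisons without gilt 47 and without that horn of gilt 36.

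The brightest probe, A_72_P204032, separated the hormone horns from the control gilts. In hormone horns its log2 value was -1.05 in gilt 36, -0.64 in gilt 38, -2.60 in gilt 40, -1.50 in gilt 41, -0.71 in gilt 44 and -1.74 in gilt 47. In the placebo horns of treated gilts it was -2.01 in gilt 36, -1.58 in gilt 38, -2.99 in gilt 41, -3.14 in gilt 44 and -4.55 in gilt 47. In control gilts it was -5.32 in gilt 9, -4.07 in gilt 14, -3.68 in gilt 28 and -3.56 in gilt 46 for the horns marked P, and -4.49, -3.67, -3.83 and -4.14 for the horns marked L of the same gilts in that order. All 6 hormone horns lay above all 8 control horns, a pattern shown by 3.83% of the 38533 probes with values on every array. Of the placebo horns of treated gilts, 4 lay above every control horn, and that of gilt 47 lay within the control range. The hormone and placebo horns overlapped as groups, because the hormone horn of gilt 40 lay below the placebo horns of gilts 36 and 38, and that of gilt 47 below the placebo horn of gilt 38.

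**Figure D1:**
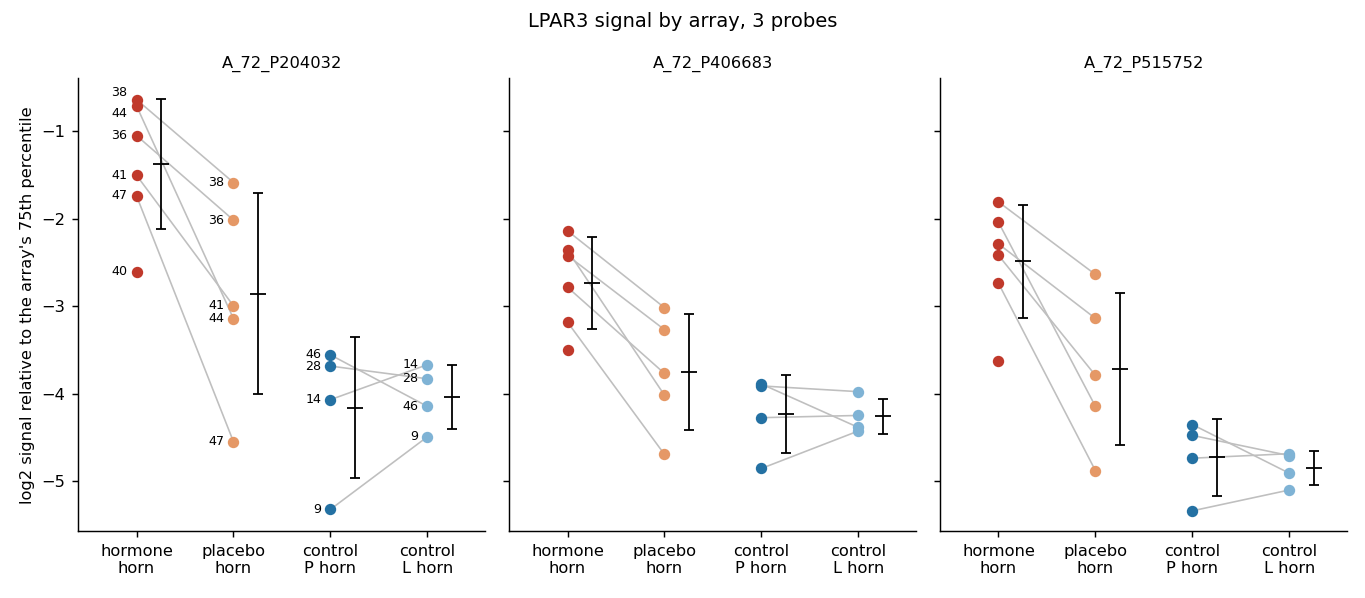
LPAR3 log2 signal relative to each array's 75th percentile (vertical axis) for the 3 probes (panels) in hormone, placebo and control horns. Each point is an array, grey lines join the horns of a gilt, numbers in the first panel are gilt numbers, and the bar beside each group is its mean ± SD. For probe A_72_P204032 the hormone horns lie between -2.60 and -0.64 and the control horns between -5.32 and -3.56.

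The order of the levels was the same for all 3 probes, with hormone horns first, placebo horns of treated gilts next and control gilts last. A_72_P204032 averaged -1.37 ± 0.74 in hormone horns, -2.86 ± 1.15 in placebo horns of treated gilts and -4.10 ± 0.54 in control gilts (SD, n = 6, 5 and 4, with the horns of a control gilt averaged). A_72_P406683 averaged -2.73 ± 0.53, -3.75 ± 0.66 and -4.25 ± 0.29 in the same groups. A_72_P515752 averaged -2.49 ± 0.64, -3.72 ± 0.87 and -4.79 ± 0.29. The SD of placebo horns was above that of control gilts on all 3 probes, although averaging 2 horns lowers the spread of control gilts. Single control horns had SDs of 0.81, 0.45 and 0.44 (marked P) and 0.36, 0.20 and 0.19 (marked L), in the same order of probes. The difference in spread was not tested. The probes followed each other closely over the 19 arrays, with Pearson's r of 0.979, 0.990 and 0.974 for the 3 pairs, which share the arrays and the RNA.

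Signals in control horns were close to the local background, and those of placebo horns spanned from near it to values above those of the dimmest hormone horn. The median signal of A_72_P204032 was 4.15 to 21.3 times the local background in hormone horns, 1.46 to 9.14 times in placebo horns of treated gilts and 1.67 to 3.05 times in control horns. For the dimmest readings, those of A_72_P515752, the control horns reached only 1.15 to 1.77 times the background. The depth of an array experiment is limited by this signal and by the number of arrays, and small differences among the control horns are the least certain.

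Hormone horns were compared with control gilts to ask how both hormones changed endometrium relative to animals that received none. LPAR3 rose by 2.72 ± 0.46 log2 units on A_72_P204032 (difference ± SE), which is 6.60-fold with a 95% interval of 3.39-fold to 12.9-fold (limma adjusted p = 0.00272, higher in 6 of 6 hormone horns than in any control horn). The other probes rose by 1.52 ± 0.27 (A_72_P406683, adjusted p = 0.00378) and 2.30 ± 0.35 (A_72_P515752, adjusted p = 0.00212). In this comparison 11.6% of 39093 probes passed at an adjusted p under 0.05, 6.72% higher and 4.93% lower. Among 3009 genes with a symbol LPAR3 ranked 20 by p (either direction) and 17 by the size of the rise. An exact permutation test that reassigned the 10 gilts gave a two-sided p of 0.00476, the smallest that 210 regroupings can give, and 0.0198 after adjustment over the 5 comparisons of LPAR3. The median of all probes in this comparison was 0.01 and that of probes identified by RefSeq, which include every gene named here, was 0.20, and LPAR3 was at 2.51 with the arrays centred on that class. In bulk endometrium, more LPAR3 RNA per cell and a larger share of cells that carry it cannot be told apart.

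LPAR3 remained past the threshold in each of the 10 fits that left out 1 gilt (2.45 to 2.97, adjusted p from 0.000943 to 0.0159). Within each of the 3 scan days the difference kept its direction, at 4.03, 1.76 and 2.66, and did not pass there with 2 treated and 1 or 2 control gilts a day (limma adjusted p = 0.18, 0.0948 and 0.874).

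The placebo horns of the treated gilts had received no hormone directly, and their comparison with control gilts asked whether they differed from the endometrium of untreated animals. LPAR3 was 1.11 ± 0.47 log2 units above control gilts on A_72_P204032 (2.15-fold, 95% interval 1.08-fold to 4.29-fold), and the difference did not pass over all probes (adjusted p = 0.166). The values were 0.41 ± 0.28 for A_72_P406683 (adjusted p = 0.392) and 0.95 ± 0.36 for A_72_P515752 (adjusted p = 0.123). Between 1 gilt and the next these horns differed widely: gilts 36 and 38 lay near the hormone horns and gilt 47 lay near the control horns. In this comparison 4.42% of 39094 probes passed, 2.46% higher and 1.96% lower. The exact permutation p over 9 gilts was 0.103 for A_72_P204032. Each gilt had its arrays on a single slide, and 1 of 9 slides held a treated and a control gilt, 36 and 9. With the slide as a term, treated and control gilts were therefore compared only through these 2 gilts, 1 animal on each side. The horn difference in that fit came from all treated gilts with both horns. The difference from control gilts was then 2.51 and is no test of the groups. The slide as a random block in place of the gilt differs from the main fit only in joining these 2 animals into 1 block. With it the difference was 1.57 and passed (adjusted p = 0.0263), so that call rests on the joining of gilts 36 and 9. Within the 3 scan days it was 2.33, 0.52 and 0.78, past the threshold in none.

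The comparison of horns within treated gilts asked what local infusion added in the same animal. LPAR3 was higher in the hormone horn of each of the 5 gilts with both horns, by 0.97 log2 units in gilt 36, 0.95 in gilt 38, 1.49 in gilt 41, 2.43 in gilt 44 and 2.81 in gilt 47. These differences are 1.95-, 1.93-, 2.82-, 5.40- and 7.02-fold. A hormone horn above the placebo horn in all 5 gilts was seen for 5.37% of 38533 probes. Gilts 36 and 38, which had the highest LPAR3 in the placebo horn, had the smallest horn differences, and gilt 47, with the lowest placebo horn, had the largest. The placebo value is subtracted in the horn difference, so this order follows in part from the arithmetic. The placebo reading of gilt 47 was also only 1.46 times the local background.

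Over all probes the difference between horns of treated gilts was 1.62 ± 0.32 log2 units (3.07-fold, 95% interval 1.92-fold to 4.91-fold, unadjusted p = 8.84e-05) and did not pass (limma adjusted p = 0.0988). A_72_P406683 was at 1.10 ± 0.19 and A_72_P515752 at 1.35 ± 0.25 (adjusted p = 0.0779 for each). Only 1 of 39096 probes passed in this comparison, 0.00256%, and it had no gene symbol here. LPAR3 ranked 7 of 3010 genes by p (either direction) and 6 by the size of the rise. The exact sign-flip permutation test over the 5 gilts gave p = 0.0625 (two-sided), the smallest that this test can give with 5 pairs. With normexp background correction on the median signals together with quantile normalization, the difference was 1.10 and passed (adjusted p = 0.0417), while with quantile normalization alone it was 1.58 and did not pass (adjusted p = 0.0838). Within the 3 scan days it was 1.70, 1.24 and 1.88, past the threshold in none.

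The 2 placebo horns of control gilts measured how far horns differ without hormone. The horn marked P minus the horn marked L was -0.83 log2 units in gilt 9, -0.40 in gilt 14, 0.15 in gilt 28 and 0.59 in gilt 46. Their mean was -0.12 ± 0.62 (SD, n = 4; exact sign-flip permutation p = 0.75), with 2 gilts in each direction. The fitted difference was -0.12 ± 0.37 (limma adjusted p = 1.00), and 0 of 39094 probes passed.

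**Figure D2:**
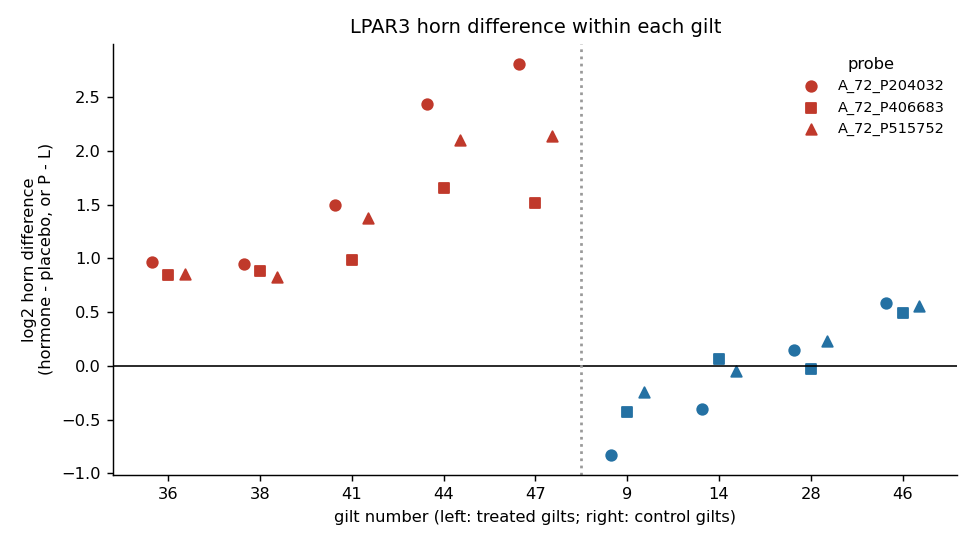
LPAR3 log2 difference between the horns of each gilt (vertical axis), hormone minus placebo horn for the 5 treated gilts in red and P minus L horn for the 4 control gilts in blue, with a symbol for each probe. For A_72_P204032 the treated gilts lie between 0.95 and 2.81 and the control gilts between -0.83 and 0.59.

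The horn differences of treated and control gilts did not overlap on any of the 3 probes, which are readings of the same RNA. How many of all probes show such a separation was not counted. The horn differences came nearest on A_72_P515752, at 0.83 in treated gilt 38 and 0.56 in control gilt 46. On A_72_P204032 the mean horn difference was 1.73 ± 0.85 in treated gilts and -0.12 ± 0.62 in control gilts (SD, n = 5 and 4). The difference between them, 1.85, had an exact permutation p of 0.00794 over 9 gilts, the smallest that 126 regroupings can give, and 0.0198 after adjustment over the 5 comparisons. The corresponding difference was 1.15 on A_72_P406683 (exact permutation p = 0.00794) and 1.34 on A_72_P515752 (exact permutation p = 0.0238). In the fit across all probes it was 1.74 ± 0.49 and did not pass (unadjusted p = 0.00225, adjusted p = 0.999), where 0 of 39093 probes passed. Because horn differences were tested against the marks P and L in control gilts, and 5 of 6 hormone horns were marked P, the mark and the hormone are told apart in treated gilts by gilt 40 alone. With the mark as a term, hormone horns were 1.49 ± 0.45 above placebo horns (adjusted p = 0.918) and 2.68 above control gilts (adjusted p = 0.00308).

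Of the other 7 genes on the list of LPA receptors, 3 had a named probe that could be tested, and none of them passed in any comparison. LPAR1, the most widely expressed LPA receptor, was 0.42 ± 0.16 log2 units higher in hormone horns than in control gilts (adjusted p = 0.0965). Its values were -3.22 to -2.76 in hormone horns, -3.74 to -2.92 in placebo horns and -4.0 to -3.14 in control horns, so that all groups overlapped. LPAR2 was at -0.35 ± 0.21 on its brighter probe (adjusted p = 0.311) and -0.44 ± 0.15 on the other (adjusted p = 0.0633). P2RY10, a receptor for lysophospholipids found on lymphocytes, was at 1.36 ± 0.82 on its brightest probe (adjusted p = 0.306), with the hormone horn of gilt 36 at 1.63 and the other 5 hormone horns between -3.11 and -1.34. Between hormone and placebo horns LPAR1 was at 0.19 ± 0.11, LPAR2 at 0.05 ± 0.15 and P2RY10 at 0.88 ± 0.58 (adjusted p from 0.57 to 0.904), against 1.62 ± 0.32 for LPAR3. These are the brightest probes. Between the same horns the other LPAR2 probe was at -0.11 ± 0.11. The other P2RY10 probes were at 0.01 ± 0.27 and at -0.14 ± 0.43, the latter well above background on only 7 arrays. Whether LPAR3 differed from the other receptors in its response was not tested.

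Of 6 measured members of 17 on the list of LPA production, 3 rose in hormone horns against control gilts and 1 of these also in placebo horns. Over all genes with a symbol, 12.7% passed as higher and 2.46% as lower in hormone horns. The list's median was 0.59 log2 units, against 0.17 over all genes with a symbol. AGK, the acylglycerol kinase that makes LPA in mitochondria, rose by 0.59 ± 0.12 (adjusted p = 0.00728), and all 6 hormone horns (-1.25 to -0.84) lay above every control horn (-1.81 to -1.31). GPAT3, an acyltransferase that makes LPA from glycerol 3-phosphate, rose by 0.89 ± 0.22 (adjusted p = 0.0155). PLA2G7, a secreted phospholipase, rose by 1.23 ± 0.37 (adjusted p = 0.0374), with 4 of 6 hormone horns above every control horn. GPAT4, an enzyme of the same step as GPAT3, was at 0.60 ± 0.20 (adjusted p = 0.0585). It passed with only the groups compared (adjusted p = 0.0294) and without gilt 40 (0.68, adjusted p = 0.0403). It also passed without the gilt block (adjusted p = 0.0203), a fit that counts the horns of a gilt as separate animals. The same held with the slide as a random block (0.66, adjusted p = 0.0101), which joins gilts 36 and 9 into 1 block. AGK also rose in the placebo horns of treated gilts (0.48, adjusted p = 0.0409), where 4.49% of genes with a symbol passed, 3.66% as higher. None of the 6 passed between the horns of treated gilts, where AGK was at 0.11, GPAT3 at 0.11 and PLA2G7 at 0.16. The call of AGK in hormone horns was kept without any single gilt. That of GPAT3 was lost without gilt 14 or 28 (adjusted p = 0.0601 to 0.0645), that of PLA2G7 without gilt 9, 14, 28, 36, 41, 44 or 47 (adjusted p = 0.0618 to 0.147), and that of AGK in placebo horns without any gilt but 36 and 44 (adjusted p = 0.0516 to 0.153).

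Of the list of LPA removal, 9 of 18 members were measured and none passed in any comparison. Its median in hormone horns against control gilts was 0.10. AGPAT2, which turns LPA into phosphatidic acid, had the smallest p of the list at 0.76 ± 0.26 (adjusted p = 0.0689). It passed without gilt 38 (0.87, adjusted p = 0.0394) and without gilt 47 (0.83, adjusted p = 0.0495). It also passed without the gilt block (adjusted p = 0.0297), a fit that counts the horns of a gilt as separate animals. The same held with the slide as a random block (0.92, adjusted p = 0.00656), which joins gilts 36 and 9 into 1 block. With arrays centred on the probes identified by RefSeq, the median of this list was -0.11.

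Among G proteins and effectors downstream of LPA receptors, 7 of 26 members were measured. In hormone horns against control gilts 1 passed as higher and 1 as lower, beside 12.7% and 2.46% of genes with a symbol. The list's median there was 0.24, against 0.17 over all genes with a symbol. GNAI2, a G protein subunit of the Gi class, rose by 0.69 ± 0.19 in hormone horns against control gilts (adjusted p = 0.0255). GNAQ, the subunit that names the Gq class, fell by 0.50 ± 0.16 (adjusted p = 0.0467), with 4 of 6 hormone horns below every control horn. RHOA, a small GTPase of the cytoskeleton, was at 0.48 ± 0.20 (adjusted p = 0.135) and, between the horns of treated gilts, at 0.40 ± 0.14 (adjusted p = 0.393). No member passed in the other comparisons. The call of GNAI2 was lost without control gilt 9, 14 or 28 (adjusted p = 0.0732 to 0.099) and that of GNAQ without any gilt but 38, 41 and 47 (adjusted p = 0.0695 to 0.13).

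Prostaglandin genes were followed because LPAR3 lies upstream of prostaglandin synthesis in the mouse uterus. Of 13 measured members of 27, 3 rose and 1 fell in hormone horns against control gilts, with a median of 0.27, against 12.7% higher, 2.46% lower and a median of 0.17 over all genes with a symbol. PTGR1, which inactivates prostaglandins and leukotriene B4, rose by 1.68 ± 0.27 (adjusted p = 0.00248), and its values were 1.18 to 2.83 in hormone horns, 0.39 to 2.00 in placebo horns and 0.24 to 0.65 in control horns. All 6 hormone horns and 4 of 5 placebo horns lay above every control horn, as for LPAR3. AKR1B1, an enzyme that can make prostaglandin F2 alpha, rose by 2.04 ± 0.52 (adjusted p = 0.0187), and PTGES3, a prostaglandin E synthase that is also a chaperone partner, rose by 0.38 ± 0.12 (adjusted p = 0.0486). CBR2, a carbonyl reductase, fell by 1.69 ± 0.47 in hormone horns (adjusted p = 0.0264) and by 2.01 in placebo horns of treated gilts (adjusted p = 0.0319), where 0.831% of genes passed as lower. CBR1, which can convert PGE2 to prostaglandin F2 alpha, was at 0.86 ± 0.32 (adjusted p = 0.0862) and passed with the horn mark as a term (0.98, adjusted p = 0.0481) and without gilt 41 (1.04, adjusted p = 0.0442). PTGS2 and PTGES, enzymes of prostaglandin synthesis named after their values were seen, were at 0.40 ± 0.43 and 0.13 ± 0.30 (adjusted p = 0.585 and 0.83). Between the horns of treated gilts PTGS2 was at -0.71 ± 0.30 and PTGES at -0.01 ± 0.21 (adjusted p = 0.46 and 0.993). Of the 13 members, 10 were above 0 between those horns. PTGR1 was at 0.94 ± 0.19 there (adjusted p = 0.102) and higher in the hormone horn of 5 of 5 gilts. The call of PTGR1 was kept without any single gilt. Those of AKR1B1 (adjusted p = 0.0584 to 0.0709) and CBR2 (0.0708 to 0.114) were lost without control gilt 9, 14 or 28, and for CBR2 also without gilt 44. CBR2 in placebo horns was lost without gilt 9, 14, 28 or 47 (adjusted p = 0.0746 to 0.115), and PTGES3 without any gilt but 46 and 47 (adjusted p = 0.0564 to 0.176).

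Of the list of estrogen-responsive genes of the pig uterus without LPAR3, 4 of 15 measured members rose in hormone horns against control gilts and none fell, with a median of 0.56, against 12.7% higher, 2.46% lower and a median of 0.17 over all genes with a symbol. UPK1B, a membrane protein of epithelial surfaces, rose by 2.42 ± 0.48 (adjusted p = 0.0059) and also rose in placebo horns by 1.95 (adjusted p = 0.037). RBP4, a retinol carrier secreted by the uterus, rose by 1.13 ± 0.28 (adjusted p = 0.0168). AKR1B1, given above, is also on this list. ESR1, the estrogen receptor alpha, was at -0.59 ± 0.20 (adjusted p = 0.0647) with 4 of 6 hormone horns below every control horn, and passed with all arrays under quantile normalization (-0.63, adjusted p = 0.0452), with the values of the authors' deposited table (adjusted p = 0.0406), with scan day as a term (adjusted p = 0.0428) and with centring on RefSeq probes (-0.81, adjusted p = 0.0201), and also without the hormone horn of gilt 36 (-0.72, adjusted p = 0.0185). SPP1, the secreted protein osteopontin, was at 2.82 ± 0.97 and did not pass (adjusted p = 0.0668), and is named after its values were seen. S1PR5, a receptor for the related lipid sphingosine 1-phosphate and the 1 measured gene of 9 on that list, rose by 0.77 ± 0.23 in hormone horns (adjusted p = 0.037). Between the horns of treated gilts UPK1B was at 0.47, RBP4 at 0.11 and S1PR5 at 0.27 (adjusted p from 0.565 to 0.835). The call of UPK1B in hormone horns was kept without any single gilt. In placebo horns it was lost without gilt 9, 14, 28, 38 or 47 (adjusted p = 0.0864 to 0.133). The call of RBP4 was lost without gilt 14 (adjusted p = 0.0652) and that of S1PR5 without any gilt but 38, 40 and 46 (0.0515 to 0.0946).

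**Figure D3:**
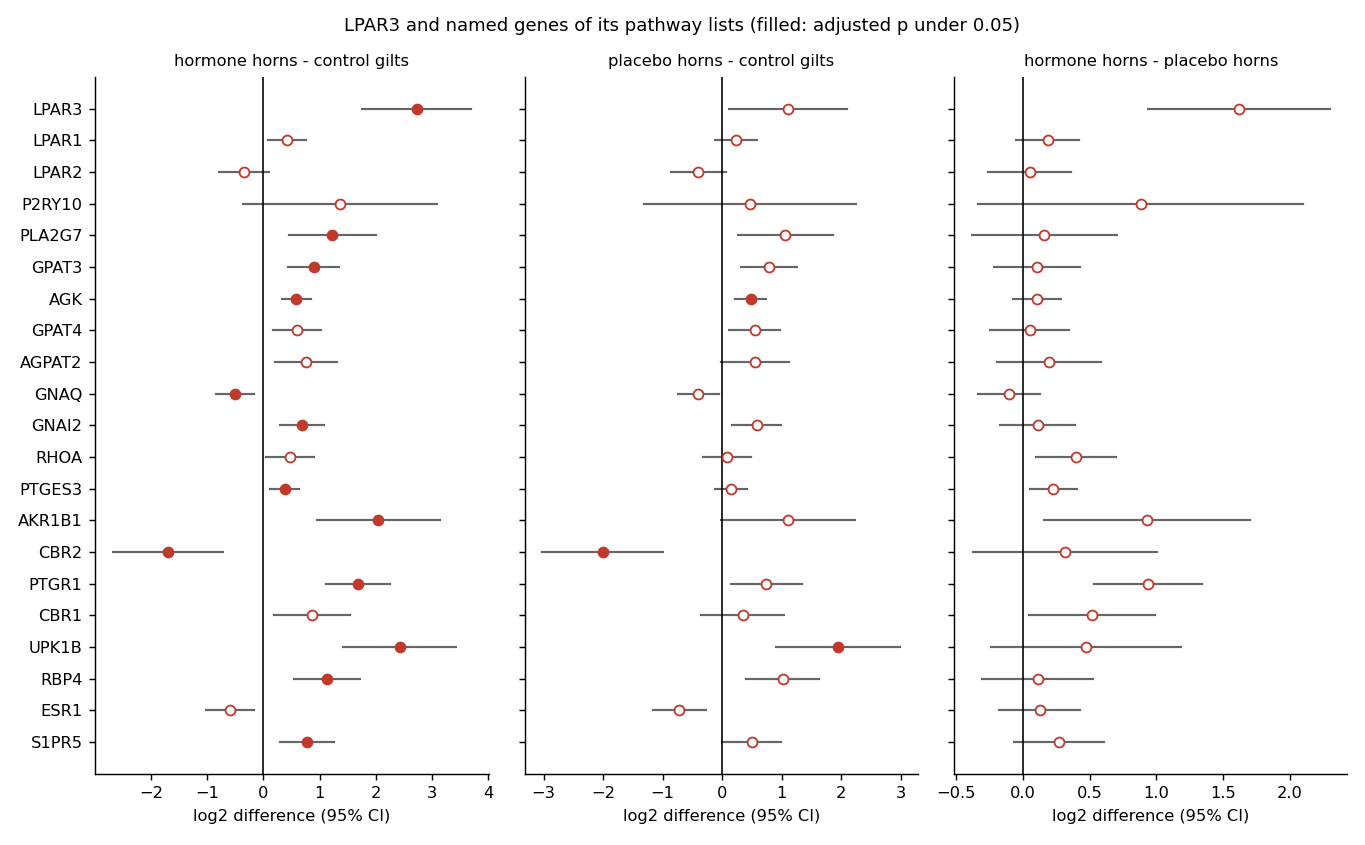
Log2 differences with 95% intervals (horizontal axes) of LPAR3 and genes named from its pathway lists in hormone horns against control gilts, placebo horns against control gilts and hormone against placebo horns, with filled points for an adjusted p under 0.05. LPAR3 has the largest difference of the genes drawn in the first panel, 2.72, and in the third, 1.62, where no gene is filled. SPP1, not drawn, is at 2.82 in the first comparison.

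The genes most like LPAR3 over the arrays were chosen by Pearson's r among 2778 genes with a symbol that were well above background on all 19 arrays. The r is a description over arrays that share gilts, slides and the group differences, and the median gene had r of 0.17. The 10 highest were ARSE (0.833), LRP10 (0.824), IP6K2 (0.814), AXL (0.813), DHRS7 (0.812), PDHB (0.811), PON2 (0.809), COL5A1 (0.808), KCNN3 (0.801) and COL1A2 (0.8). They include a receptor tyrosine kinase (AXL), a subunit of pyruvate dehydrogenase (PDHB), a pair of collagen chains (COL5A1 and COL1A2) and a calcium-activated potassium channel (KCNN3). In hormone horns against control gilts 9 of the 10 rose, against 12.7% of genes with a symbol. This count follows in part from the choice by likeness to a gene that rose. AXL did not pass (0.40 ± 0.14, adjusted p = 0.0712), though it did without gilt 40 (0.46, adjusted p = 0.0486). It also passed without the gilt block (adjusted p = 0.0185), a fit that counts the horns of a gilt as separate animals. The same held with the slide as a random block (0.48, adjusted p = 0.00994), which joins gilts 36 and 9 into 1 block. The calls of ARSE, DHRS7 and PDHB were kept without any single gilt, and those of the other 6 were lost without gilt 9, 14 or 28, among others (adjusted p from 0.0507 to 0.136). The largest of these differences was 1.69 ± 0.44 for KCNN3 (adjusted p = 0.0202) and the smallest that passed was 0.41 ± 0.10 for IP6K2 (adjusted p = 0.0147).

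KCNN3 and PDHB were also like LPAR3 in the horn differences of the 9 gilts with both horns, with r of 0.768 and 0.806, against 0.420 to 0.604 for the other 8 genes. KCNN3 had log2 values of -3.16 to -0.59 in hormone horns, -5.17 to -2.65 in placebo horns and -4.16 to -3.14 in control horns. Its difference between the horns of treated gilts was 1.68 ± 0.31 (adjusted p = 0.0779), and its placebo horns differed from control gilts by 0.01 (adjusted p = 0.99), against 1.11 for LPAR3. PDHB was 0.44 ± 0.12 higher in hormone than in placebo horns (adjusted p = 0.236) and 0.62 above control gilts in placebo horns (adjusted p = 0.0527).

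The 5 lowest correlations were those of GZMB (-0.794), RGS4 (-0.790), PPP3CB (-0.772), GATM (-0.759) and FLVCR2 (-0.758). Each r is that of the gene's brightest probe, and other probes of some genes were less like LPAR3, down to 0.492 for COL5A1, 0.575 for AXL, 0.620 for LRP10 and -0.193 for FLVCR2. GZMB, a protease of cytotoxic lymphocytes, was the 1 of 16 measured immune cell markers below 0 in hormone horns against control gilts, where other genes of such cells were at 0.53 (GZMA) and 0.67 (NKG7) and did not pass (adjusted p = 0.438 and 0.264). RGS4 speeds the shutdown of G protein signals, and GATM makes the precursor of creatine. All 5 fell in hormone horns against control gilts, by 0.45 to 2.49 log2 units, where 2.46% of genes with a symbol passed as lower. Their fall follows in part from their choice by the lowest r with a gene that rose. RGS4 fell the most of them, by 2.49 ± 0.40 (adjusted p = 0.00234), with hormone horns at -2.78 to -1.82, placebo horns at -1.85 to -0.38 and control horns at -1.58 to 0.88. The calls of RGS4 and GATM were kept without any single gilt, and those of GZMB, PPP3CB and FLVCR2 were lost without gilt 28, among others (adjusted p from 0.0513 to 0.106).

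**Figure D4:**
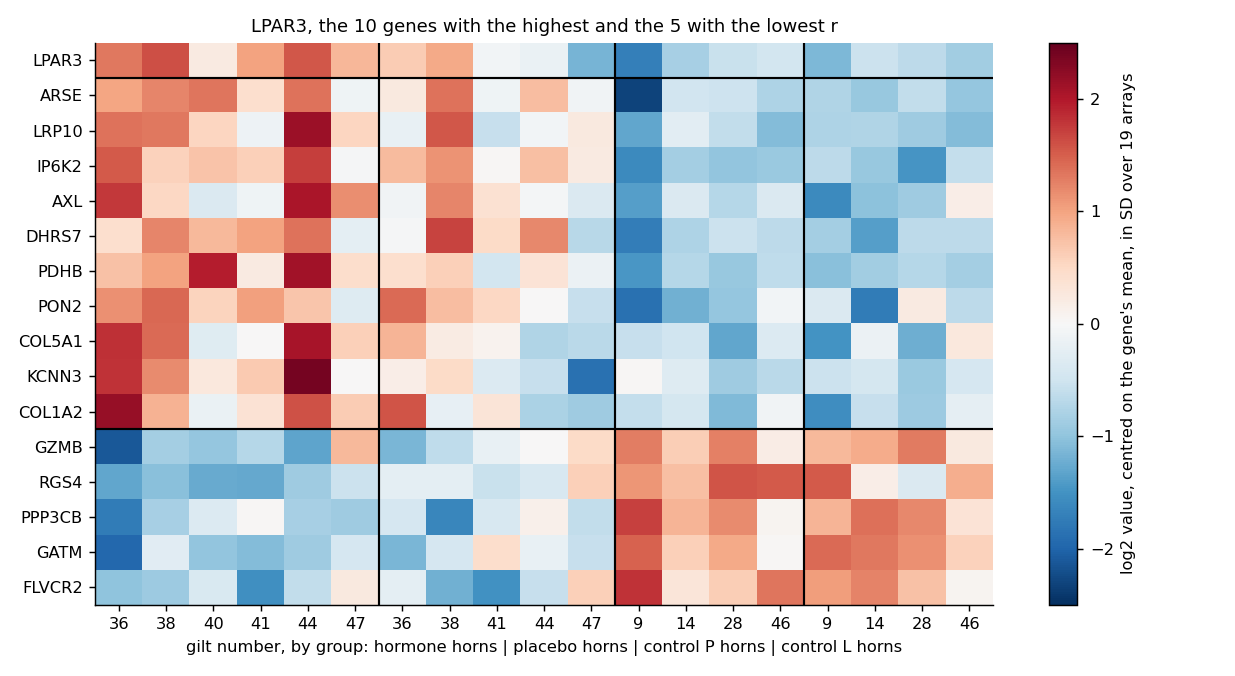
Log2 values of LPAR3, the 10 genes with the highest and the 5 with the lowest r with it (rows) on the 19 arrays (columns, by group and gilt), each centred on the gene's mean and divided by its SD. ARSE, the gene with the highest r (0.833), is high in hormone horns and low in control horns, and GZMB, with the lowest (-0.794), runs the other way.

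Likeness among arrays of the same group named other genes. After the group means were removed, r was highest for SST (0.804), the hormone somatostatin, NPEPPS (0.796), an aminopeptidase, DIO2 (0.785), which activates thyroid hormone, MAOB (0.763), a monoamine oxidase, and SLC7A9 (0.762), an amino acid transporter. Of these DIO2 alone also had a high r over the 19 arrays (0.726), and SST was at -0.13. Of the 50 genes highest by each measure, 4 were shared. The list of 10 depended on gilt 47: without both of its horns none of the 10 stayed among the 10 highest, although their r was then 0.784 to 0.883, and VCAN, a matrix proteoglycan, came first. Among the 11 arrays of treated gilts alone, 2 of the 10 stayed and KCNN3 came first (0.925).

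Markers of endometrial cell types were set beside LPAR3 on each array, as medians of log2 values above the control mean. The median of 8 measured epithelial markers of 15 had r of 0.717 and Spearman's rho of 0.695 with LPAR3 over the 19 arrays. The median of 5 stromal markers of 11 had r of 0.723 and rho of 0.718. Epithelial medians were -0.19 to 0.81 in hormone horns, -0.11 to 0.64 in placebo horns of treated gilts and -0.23 to 0.13 in control horns. Stromal medians were 0.08 to 0.72, 0.16 to 0.56 and -0.41 to 0.19 in the same groups. All measured epithelial and stromal markers were well above background on every array, and the tissue is labelled endometrium. In hormone horns against control gilts 3 epithelial markers (EPCAM, CDH1 and CLDN4) and 2 stromal markers (COL1A2 and THY1) passed as higher and none as lower. Of all genes with a symbol, 12.7% passed as higher there. The list medians in that comparison were 0.19 (epithelial) and 0.41 (stromal), against 0.17 over all genes with a symbol. The other epithelial markers were at -0.33 (KRT8), -0.03 (ESRP1), 0.07 (CLDN3), 0.11 (CLDN7) and 0.28 (OCLN), and none of them passed. EPCAM, CDH1 and CLDN4 also passed as higher in placebo horns, where 3.66% of genes did. These markers were named after their values were seen. Their part in the LPAR3 result was not tested.

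Markers of immune cells, 16 measured of 21, had r of 0.163 and rho of 0.40 with LPAR3. Their median was 3.17 in the hormone horn and 3.32 in the placebo horn of gilt 47, and between 0.02 and 0.79 in the other treated horns. LPAR3 differed by 2.81 log2 units between those horns of gilt 47, the largest horn difference of all gilts. Single immune markers had r with LPAR3 from -0.794 (GZMB) to 0.559 (S100A8), with S100A9 at 0.539 and S100A12 at 0.512. In hormone horns against control gilts 4 of the 16 passed as higher and 1 as lower, beside 12.7% and 2.46% of genes with a symbol. The part of immune cells in the LPAR3 result was not tested. Without gilt 47, LPAR3 was 2.80 log2 units higher in hormone horns than in control gilts (adjusted p = 0.000943). Medians of 5 endothelial markers of 8 were 0.32 to 0.96 in hormone horns, -0.09 to 1.16 in placebo horns and -0.15 to 0.36 in control horns (r of 0.426 with LPAR3). Of these 5, 3 passed as higher in hormone horns against control gilts, where 12.7% of genes with a symbol did. They were VWF at 0.78 (adjusted p = 0.0113), ENG at 0.64 (adjusted p = 0.0254) and CDH5 at 0.61 (adjusted p = 0.0319). These were named after their values were seen, and their part in the LPAR3 result was not tested. Medians of 4 smooth muscle markers of 6 had r of 0.084.

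**Figure D5:**
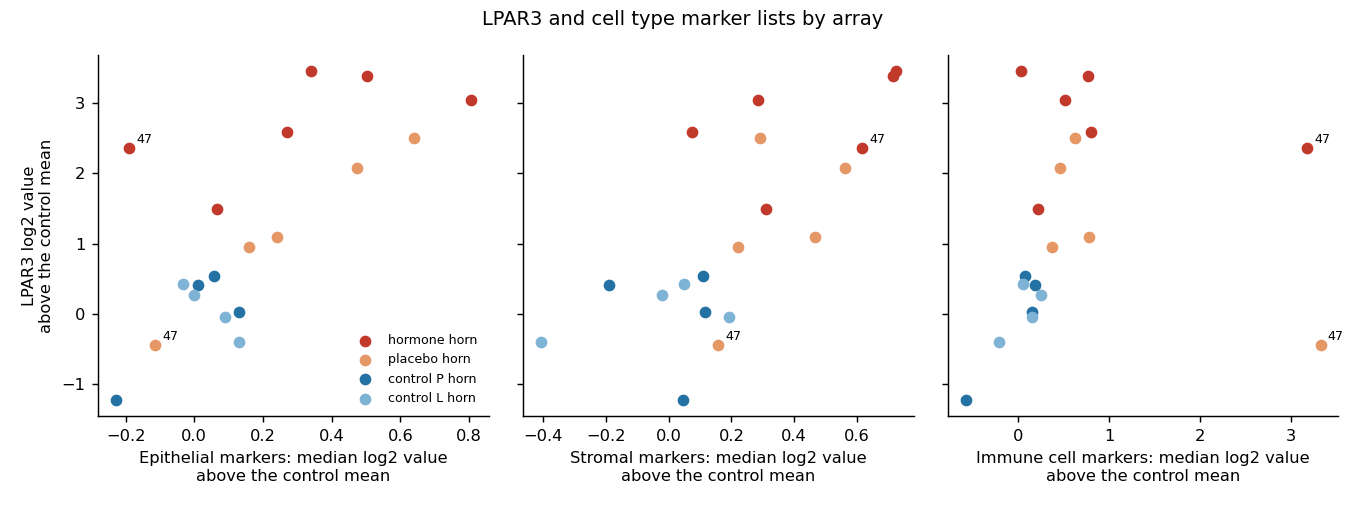
LPAR3 log2 value above the control mean (vertical axis) against the median of epithelial, stromal and immune cell markers above the control mean (horizontal axes) on the 19 arrays, coloured by group, with both arrays of gilt 47 numbered. The arrays of gilt 47 have immune medians of 3.17 and 3.32 and differ in LPAR3 by 2.81.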

How the data were processed

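RNA of 19 uterine horns was hybridised to one-colour Agilent arrays, per the labels' protocols. The deposited scanner files hold linear intensity per spot, background-subtracted by Agilent Feature Extraction 10.7.3.1 per the file headers (the submitters' processing notes name version 9.1). The authors' deposited value table holds log2 values (r from 0.996 to 0.999 with the scanner values, medians per array 7.72 to 7.83); no source used here gives its normalization, and it was tried as an alternative. Outlier-flagged spots were left out, except that they were kept for the correlations of other genes with LPAR3 and for the marker medians. Spots of a probe were averaged, and log2 intensity was set relative to each array's 75th percentile (597 to 983). No spot counted as saturated (0 on every array).

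Probes that were well above background on 4 or more arrays (39098) were fitted with limma 3.58.1 (R 4.3.3, statmod 1.5.0), with 4 groups, gilt as a random block and the mean of CTRL_P and CTRL_L for control gilts. All tests were two-sided and p-values were adjusted over all probes (Benjamini-Hochberg, threshold 0.05). Horns with the same gilt number are from 1 animal, and their deviations around group means correlated at 0.336 to 0.795 (hormone and placebo horns) and 0.403 to 0.627 (control horns), against at most 0.143 and 0.0181 for different gilts. Probes were named through RefSeq accessions (Sscrofa11.1 table; 6768 of 43603 named), and the brightest probe stood for a gene. Other genes with the same sequence were not checked for cross-hybridisation.

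The gene, the lists, the naming rule and the alternatives were chosen with earlier results of these data known. Named genes were LPAR3 and the LPA receptors, list members that passed, the member of each list that did not pass with the smallest p, and the 10 highest and 5 lowest r with LPAR3 (5 highest after group means). Some genes counted here are not reported by name. The fit was tested on simulated data. Alternatives covered normalization, background correction, dim probes, probe choice, gilt block, horn mark, slide, scan day and each gilt left out. The planned normexp correction on mean signals was replaced by median signals, the column the files held, with quantile normalization.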

Additional observations from a re-analysis of the deposited data

Results flagged for a closer look

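The horn difference of LPAR3 differed between treated and control gilts, by 1.85 log2 units on A_72_P204032 (exact permutation p = 0.00794, the smallest that 126 regroupings allow). In the fit across all probes it was 1.74 ± 0.49 and did not pass (limma adjusted p = 0.999), nor did it pass in any alternative. LPAR3 was chosen with earlier results of these data known, which the permutation p does not allow for.

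Of 156 sets of 4 to 6 arrays of a named gene tested for an extreme array, 8 held 1 (chance flags about 1 in 20), none of them for LPAR3. P2RY10 was at 1.63 log2 units in the hormone horn of gilt 36, against -3.11 to -1.34 in the others, and at -2.40 and -2.46 in the P and L horns of control gilt 46, against at most -3.37 and -3.42 in the other control gilts. GPAT3 was at -0.86 in the hormone horn of gilt 40, against -1.92 to -1.61. CBR1 was at -0.55 in the placebo horn of gilt 41, against 0.09 to 0.31. RGS4 was at -0.38 in the placebo horn of gilt 47, against -1.85 to -1.44, the same array that held the lowest LPAR3 of the treated gilts. In control gilt 9, GNAQ was at -0.69 in the L horn, against -0.38 to -0.33 in the others, and ARSE was at 0.97 in the P horn, against 2.29 to 2.53. That P horn also held the lowest LPAR3 value of all arrays.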

How the results depend on the processing

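LPAR3 in hormone horns against control gilts kept its direction in all 31 alternatives (1.52 to 4.24) and its call in 28; the 3 that lost it were the fits within scan days, at 4.03, 1.76 and 2.66, which hold fewer gilts. Leaving out each gilt gave 2.45 to 2.97. Placebo horns against control gilts passed with the slide as a random block (1.57), which differs from the main fit only in joining gilts 36 and 9 into 1 block. With the slide as a term, the difference was 2.51 (4.24 for hormone horns). That fit compares treated with control gilts only through gilts 36 and 9, 1 animal on each side. Leaving out each gilt gave 0.77 to 1.51 for placebo horns. Hormone against placebo horns passed with normexp on median signals and quantile normalization together (1.10), and leaving out each gilt gave 1.28 to 1.81. The horn difference of treated against control gilts ranged from 1.41 to 1.97 without each gilt. The P minus L difference of control gilts changed sign on A_72_P406683 (0.027), A_72_P515752 (0.12), the mean of the probes (0.0092) and within scan day 3 (0.59), and ranged from -0.36 to 0.11 without each gilt; the cause was not tested.

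The fit without the replicate block of gilt counts the horns of a gilt as separate animals. LPAR3 differences were then 2.72 (adjusted p = 0.000703), 1.24 (adjusted p = 0.0787) and, between horns, 1.48 (adjusted p = 0.988). With gilt as a fixed replicate block the difference between horns was 1.73 (adjusted p = 0.0635), and no call of LPAR3 changed in either fit. P2RY10 changed sign within scan day 3 (-0.33) and ESR1 with the slide as a term (0.17), where only gilts 36 and 9 link treated and control gilts. Without gilt 47, without the hormone horn of gilt 36 and with centring on RefSeq probes, members that rose in hormone horns against control gilts were 2, 2 and 2 for LPA production, 1, 0 and 0 for LPA removal, 3, 2 and 2 for prostaglandin genes and 4, 4 and 3 for estrogen-responsive genes. Of the values of named genes under alternatives, 799 kept direction and call, 263 lost the call, 23 gained it and 2 changed sign.

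Counts of probes moved more than LPAR3 did. In hormone horns against control gilts 4553 probes passed, against 1454 without gilt 14, 1614 without gilt 28, 1753 without gilt 9, 2873 without gilt 44, 2160 with control horns averaged, 6972 without the block, 8293 with the slide as a random block, and 4, 82 and 0 within scan days. In placebo horns against control gilts 1728 passed, with a range of 0 (without gilt 28) to 5005 (slide as a random block), and between horns 1, with a range of 0 to 34 (quantile normalization). Centring on probes identified by RefSeq, an alternative added after the data were seen, made 1267 higher and 5096 lower in hormone horns against control gilts, where the main scaling made 2627 higher and 1926 lower; LPAR3 was then at 2.51. LPAR3 signals in control horns near the background limit how small a difference there can be read.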

Other observations

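Between the horns of treated gilts, the genes with the smallest p beside LPAR3 were read as a description, and they were chosen after their values were seen. PBK, TCF19, KCNN3, NRM and ACKR3 were among the 6 genes ranked above LPAR3, of which none passed over all probes. PBK, a kinase of dividing cells, was 1.28 ± 0.22 log2 units higher in hormone than in placebo horns (adjusted p = 0.0779), and higher in the hormone horn of 5 of 5 gilts. PBK had log2 values of -0.13 to 1.34 in hormone horns, -2.02 to 0.06 in placebo horns of treated gilts and -2.69 to -1.37 in control horns, and its r with LPAR3 over the 19 arrays was 0.792. Against control gilts PBK rose by 2.31 in hormone horns (adjusted p = 0.00146).

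ACKR3, a scavenging receptor for chemokines, was lower in the hormone horn of 5 of 5 gilts, at -0.99 ± 0.19 (adjusted p = 0.0829). KCNE3, a potassium channel subunit ranked 10, was at -1.07 ± 0.22 (adjusted p = 0.103). Its hormone horns lay between -0.20 and 0.75, its placebo horns between 0.92 and 2.58 and its control horns between 0.78 and 2.45, with all 6 hormone horns below every control horn. KCNN3, another potassium channel gene, ran with LPAR3 and KCNE3 ran against it (r = -0.588 over 19 arrays).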
